A study of Mus musculus with 6 samples.

Results

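The upper-layer neuron identity genes examined here were Cux1, Cux2, Pou3f1, Pou3f2, Pou3f3, Rorb, Mef2c, Lhx2 and Inhba, regulators and markers of the projection neurons of cortical layers 2 to 4. They were found by their symbols, and all 9 were among the 17348 genes of the table. The table came from a study of Ybx1, an RNA-binding protein that reads 5-methylcytosine in mRNA, in the developing mouse cortex. mRNA from cortices dissected at E18.5 (embryonic day) was sequenced as 3 control and 3 conditional knockout (cKO) libraries, with replicates numbered 1 to 3 in each group. The cKO embryos carried Nestin-Cre and floxed Ybx1 alleles (Ybx1 fl/fl). The Nestin promoter drives Cre throughout the nervous system, so progenitors and the neurons descending from them both lose Ybx1. The sample labels call the controls WT, the study's methods call them wild type littermates, and elsewhere the study defines its controls as Ybx1 fl/fl without Cre. Cre was thus described for the cKO group only, and the effect of Cre and that of the Ybx1 deletion cannot be told apart.

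Cortical projection neurons are born in sequence, the deep layers first and the upper layers last, and the later neurons migrate past the earlier ones. Upper-layer neurons send axons mainly to other cortical areas, through the corpus callosum or within the hemisphere, while the layer 4 cells receive thalamic input. At E18.5 the neurogenic period is ending and many upper-layer neurons are still migrating, so a dissected cortex holds them at mixed stages. The genes are not specific to these neurons. Lhx2 and the Pou3f genes are also transcribed in progenitors, and Mef2c is found in other neurons, microglia and vessels. In such bulk tissue, fewer cells of a type and less RNA per cell cannot be told apart.

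Ybx1 itself, the targeted gene, averaged 1089 ± 182 CPM in control libraries and 24.6 ± 0.519 CPM in cKO libraries (mean ± SD, n = 3, with CPM being counts scaled by edgeR to a common library total). The libraries held between 15091951 and 16885451 estimated counts. Control replicate 2 stood apart. Its log2 CPM profile correlated with the other 5 libraries at 0.971 to 0.98, while those 5 correlated with each other at 0.985 to 0.994. Y-linked transcripts set the groups apart too. All 4 Y-linked genes tested were lower in every cKO library, with at least 352 counts in each control and at most 22 in each cKO library, so sex and genotype cannot be told apart. The series' description mentions 3 batches spread over the replicates, without naming the libraries of each. The methods call the replicates independent experiments but do not say whether a library came from 1 embryo or several, and p-values measure only the spread between these libraries.

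No upper-layer gene was called different between cKO and control cortex at an adjusted p-value under 0.05. With 3 libraries a group this does not show equal levels. All 9 passed the filter on low counts, with 526 to 15027 counts per library, and 3 had a higher and 6 a lower mean in cKO. In edgeR's quasi-likelihood test, 0 of the 9 had an adjusted p-value under 0.05, where 0.0737% of the 13570 genes tested did. Their adjusted p-values ran from 0.764 to 0.972. At an unadjusted p-value under 0.05 the number was also 0 of 9, beside 6.62% of all tested genes. In DESeq2 and in edgeR's exact test 0 of the 9 passed the adjusted threshold, where 99 and 97 of the 13570 genes tested did. In each, 1 of the 9, Pou3f1, had an unadjusted p-value under 0.05, beside 6.31% and 6.57% of all tested genes. The control and cKO libraries overlapped in CPM for each of the 9, whereas the groups were apart for 14.3% of all tested genes. The median log2 fold change (cKO minus control) was -0.05 over the 9 genes and 0.00272 over all tested genes. The 95% confidence intervals of the 9 fold changes together spanned 0.561 to 1.44 times the control level. Each interval holds the fold changes compatible with its gene's values in 3 libraries a group, and the smallest detectable change was not computed.

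**Figure D1:**
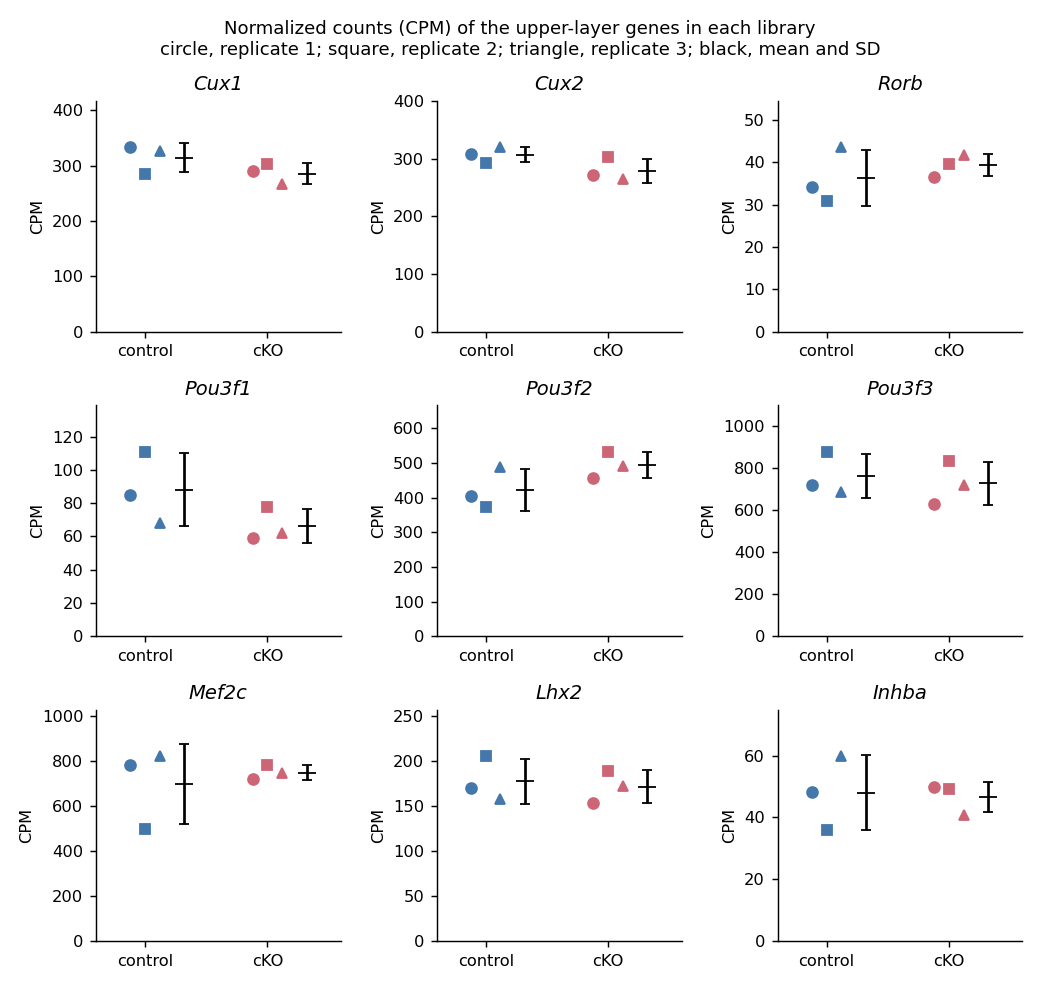
Normalized counts (CPM, linear axes from 0) of the 9 upper-layer genes in each control (blue) and cKO (red) library, with marker shape giving the replicate number and black bars giving mean and SD (n = 3). The groups overlap in each panel, and control replicate 2 (blue square) is the highest or lowest control in all 9.

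Cux1 and Cux2 are paralogous homeodomain proteins that shape dendrite branching, spines and synapses of layer 2 to 4 neurons, and Cux2 also marks some progenitors. Both genes lie on chromosome 5 on the minus strand, Cux1 at chr5:136248135-136567490 and Cux2 at chr5:121856366-122050102 (GRCm38, as are all coordinates here). Cux1 stood at 334, 285 and 327 CPM in control replicates 1, 2 and 3 and at 290, 303 and 267 CPM in cKO. Control replicate 2 lay among the cKO libraries, and the other 2 controls lay above all of them. The means were 315 ± 26.2 and 286 ± 18.2 CPM (SD, n = 3), a log2 fold change of -0.14 (SE 0.113 as the standard error of the fit, 95% interval -0.39 to 0.12, adjusted p = 0.861). Cux1 also encodes the Golgi protein CASP from the same locus, and the count per gene does not separate the products. Without control replicate 2, the log2 fold change of Cux1 was -0.21 (interval -0.39 to -0.02, adjusted p = 0.342).

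Cux2 followed Cux1 closely. Its levels were 308, 293 and 320 CPM in control and 271, 303 and 264 CPM in cKO, with only cKO replicate 2 inside the control range. The means were 307 ± 13.4 and 279 ± 20.9 CPM (SD, n = 3), a log2 fold change of -0.14 (SE 0.107, interval -0.38 to 0.11, adjusted p = 0.857). An exact two-sided permutation test of the 6 values gave p = 0.3 for Cux1 and p = 0.2 for Cux2, where 3 libraries against 3 allow no value below 0.1. The coefficient of variation of Cux2 in control, 4.35%, was the lowest of the 9 genes there.

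Pou3f1 (also called Oct6 or SCIP), Pou3f2 (Brn2) and Pou3f3 (Brn1) are POU-domain transcription factors that overlap in function. Pou3f2 and Pou3f3 together support the production, migration and positioning of upper-layer neurons, and Pou3f1 is also known from myelinating Schwann cells. Each is annotated as 1 exon, Pou3f1 at chr4:124656807-124660655 (plus strand), Pou3f2 at chr4:22482780-22488366 (minus strand) and Pou3f3 at chr1:42695768-42703176 (plus strand). Their transcripts share short identical runs, and only reads that fall wholly inside such a run could match more than 1 gene exactly. The stretch below, the longest run shared by the annotated transcripts of Pou3f1 and Pou3f2, is shown for that reason, 5′ to 3′ on the coding strand, with capitals at the 36 of 38 bases that are identical in all 3 genes.
Pou3f1 (chr4:124658589-124658626, plus strand): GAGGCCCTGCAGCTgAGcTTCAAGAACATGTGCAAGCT
Pou3f2 (chr4:22487155-22487192, minus strand): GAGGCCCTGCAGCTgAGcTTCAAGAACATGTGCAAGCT
Pou3f3 (chr1:42698226-42698263, plus strand): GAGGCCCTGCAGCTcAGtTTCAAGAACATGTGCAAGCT
The longest identical run was 29 bases between Pou3f1 and Pou3f3, and 23 bases between Pou3f2 and Pou3f3. No run of 50 bases was shared by any pair among these 3 transcripts, and Cux1 and Cux2 shared at most 23. The read length is not given in the sources used here, and RSEM, named in the submitters' processing notes, divides reads that match several genes by estimation.

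Among the 9 genes, Pou3f1 had the lowest fold change in cKO. It stood at 85, 111 and 68.1 CPM in control and at 58.9, 77.9 and 61.8 CPM in cKO. The cKO libraries 1 and 3 were below every control, while cKO replicate 2 was above control replicate 3. The means were 88.1 ± 21.8 and 66.2 ± 10.2 CPM (SD, n = 3), a log2 fold change of -0.41 (SE 0.186, interval -0.83 to 0.00809, unadjusted p = 0.0537, adjusted p = 0.764). This corresponds to 0.751 times the control level, with an interval of 0.561 to 1.01. The exact two-sided permutation p was 0.2. Control replicate 2 was the highest of the 6 libraries, and without it the log2 fold change was -0.21 (unadjusted p = 0.14). Without control replicate 3, the lowest control, it was -0.57 (unadjusted p = 0.00701, adjusted p = 0.256). In that fit 14% of all tested genes had an unadjusted p-value under 0.05, against 6.62% with all 6 libraries.

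Pou3f2 had the highest fold change of the 9 genes. It stood at 404, 374 and 488 CPM in control and at 457, 533 and 492 CPM in cKO. The cKO replicates 2 and 3 lay above every control, and cKO replicate 1 lay below control replicate 3. The means were 422 ± 59.5 and 494 ± 38.2 CPM (SD, n = 3), a log2 fold change of 0.23 (SE 0.132, interval -0.07 to 0.53, adjusted p = 0.815). The exact two-sided permutation p was 0.2. The log2 fold change of Pou3f2 was 0.15 without control replicate 2 (unadjusted p = 0.179). It was 0.35 without control replicate 3 (interval 0.07 to 0.62, unadjusted p = 0.0207, adjusted p = 0.304), where 14% of all tested genes had an unadjusted p-value under 0.05. Pou3f1 and Pou3f2 thus had point estimates on opposite sides of 0, neither past the test, and the difference between them was not tested.

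Pou3f3 was the most abundant of the 3 Pou3f genes and lay between the other two in fold change. It stood at 723, 880 and 686 CPM in control and at 632, 833 and 719 CPM in cKO. Replicate 2 was the highest library of its group in both groups, and the ranges lay over each other. The means of Pou3f3 were 763 ± 103 and 728 ± 101 CPM (SD, n = 3), a log2 fold change of -0.07 (SE 0.145, interval -0.4 to 0.26, adjusted p = 0.94). Its sign turned without control replicate 2 (0.05), without cKO replicate 1 (0.03) and on the log2(TPM + 1) scale (0.08). On that last scale the median of all tested genes was 0.14, above the value of Pou3f3.

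Rorb and Mef2c are transcription factors that are prominent in layer 4 and the layers around it. Rorb (chr19:18930605-19111196, minus strand), a nuclear receptor, directs the layer 4 programme and the clustering of these cells into barrels, and it had the lowest level of the 9 genes. It stood at 34.1, 30.8 and 43.6 CPM in control and at 36.6, 39.5 and 41.8 CPM in cKO, so all cKO libraries fell inside the control range. The means of Rorb were 36.2 ± 6.63 and 39.3 ± 2.6 CPM (SD, n = 3), a log2 fold change of 0.12 (SE 0.144, interval -0.21 to 0.45, adjusted p = 0.902). Its sign turned with the length and GC correction described below (-0.05). With 1 library left out, Rorb ran from 0.02 (without control replicate 2) to 0.28 (without control replicate 3).

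Mef2c (chr13:83504034-83667080, plus strand), a MADS-box factor that acts in neuronal maturation and synapse number, had the highest coefficient of variation between controls, 25.4%. It stood at 783, 496 and 822 CPM in control and at 718, 784 and 746 CPM in cKO. The cKO libraries lay close together, between the low control replicate 2 and the high control replicate 3. The means were 700 ± 178 and 749 ± 33.3 CPM (SD, n = 3), a log2 fold change of 0.1 (SE 0.182, interval -0.31 to 0.51, adjusted p = 0.931). Without control replicate 2 the sign of Mef2c turned, to -0.1 (adjusted p = 0.669).

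Lhx2 and Inhba complete the group. Lhx2 (chr2:38339281-38369733, plus strand), a LIM-homeodomain factor, specifies cortical identity in progenitors and is retained in upper-layer neurons. It stood at 170, 205 and 157 CPM in control and at 153, 189 and 172 CPM in cKO, with replicate 2 the highest in each group. The means were 177 ± 24.8 and 171 ± 18.4 CPM (SD, n = 3), a log2 fold change of -0.05 (SE 0.136, interval -0.36 to 0.26, adjusted p = 0.953). The sign of Lhx2 turned in 5 of the 16 alternative fits, so the data give it no direction. The highest value, 0.08, was on log2(TPM + 1), where the median of all tested genes was 0.14.

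Inhba (chr13:16011851-16031621, plus strand) encodes the inhibin beta A subunit, which forms activin A, a secreted ligand of the TGF-beta family, and is the only member of the group that is not a transcription factor. It stood at 48.4, 35.8 and 59.9 CPM in control and at 49.8, 49.2 and 40.9 CPM in cKO. The cKO libraries fell inside the control range, whose ends were control replicates 2 and 3. The means were 48 ± 12.1 and 46.6 ± 4.95 CPM (SD, n = 3), a log2 fold change of -0.04 (SE 0.182, interval -0.45 to 0.37, adjusted p = 0.972). Without control replicate 2 it was -0.21 and without control replicate 3 it was 0.15, so the sign of Inhba turned with the library left out.

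Control replicate 2 moved with the GC content of the genes, though not in every upper-layer gene. It was the highest or lowest of the 3 controls for all 9 genes, and the highest or lowest of the 6 libraries for 7. In Pou3f1 (GC content 63.9% in the longest annotated transcript), Lhx2 (58.5%) and Pou3f3 (51.1%) its log2 CPM was above the mean of the other controls, by 0.55, 0.33 and 0.32. In Mef2c (40.8%), Inhba (41.4%), Rorb (41.6%) and Pou3f2 (44.4%) it differed from that mean by -0.69, -0.59, -0.32 and -0.25. Cux1 (50%) and Cux2 (55.5%) differed by -0.21 and -0.1. Over all tested genes with a known GC content, split into 4 bins of GC content, the median difference was -0.28 in the lowest and 0.34 in the highest bin. Cux1 and Cux2 did not follow this, as they lay below 0 in bins with medians of 0.0952 and 0.34. The labels do not say which batch held control replicate 2, and the part of a batch in these values was not tested.

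**Figure D2:**
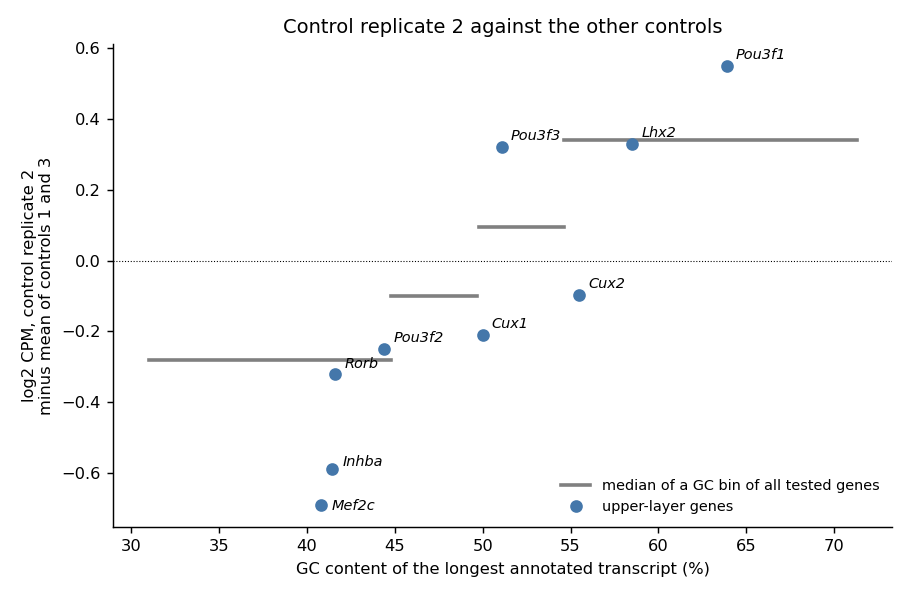
Difference in log2 CPM between control replicate 2 and the mean of control replicates 1 and 3 (vertical axis) against the GC content of the longest annotated transcript in percent (horizontal axis), for the 9 upper-layer genes (points) and as medians of 4 GC bins of all tested genes (grey lines). Pou3f1, Lhx2 and Pou3f3 lie above 0 and the other 6 genes below, from -0.69 for Mef2c to 0.55 for Pou3f1, and the bin medians run from -0.28 to 0.34.

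A smooth trend on transcript length and GC content was removed from each library as an alternative. The corrected log2 fold changes were -0.35 for Pou3f1 (interval -0.55 to -0.15), -0.31 for Cux1 (-0.58 to -0.04) and -0.23 for Cux2 (-0.4 to -0.05). These 3 genes then had unadjusted p-values of 0.00326, 0.0307 and 0.0179, and adjusted p-values of 0.123, 0.336 and 0.272. In the same fit 12.4% of all tested genes had an unadjusted p-value under 0.05. Pou3f2, Pou3f3, Rorb, Mef2c, Lhx2 and Inhba had intervals that held 0. Across the 16 alternative fits the sign of Cux1, Cux2 and Pou3f1 stayed negative and that of Pou3f2 stayed positive, and no gene of the 9 reached an adjusted p-value under 0.05.

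**Figure D3:**
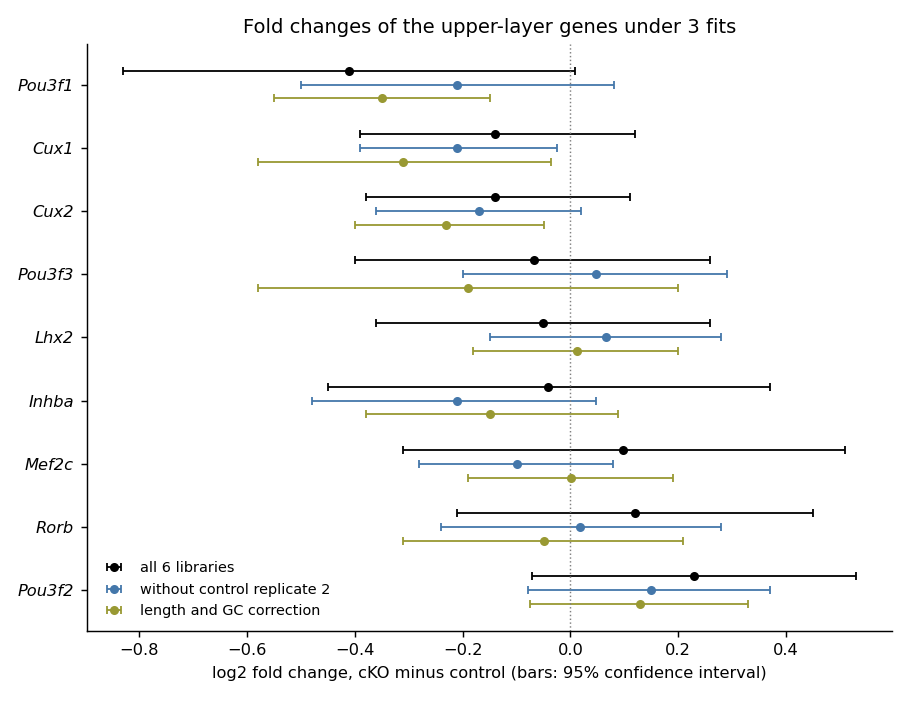
Log2 fold change (cKO minus control, horizontal axis) with its 95% confidence interval for each upper-layer gene, fitted with all 6 libraries (black), without control replicate 2 (blue) and with the length and GC correction (olive). All 9 black intervals cross 0, while the olive intervals of Pou3f1, Cux1 and Cux2 and the blue interval of Cux1 do not.

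Levels of different genes were compared as TPM (a share of all transcripts), which allows for transcript length. In control cortex the mean TPM was 390 ± 17.2 for Pou3f3, 260 ± 85.1 for Mef2c, 202 ± 8.02 for Lhx2, 156 ± 11.1 for Cux1 and 152 ± 32.9 for Pou3f2 (SD, n = 3). Below these came Cux2 at 106 ± 15.1, Pou3f1 at 68.4 ± 10.9, Inhba at 16.4 ± 5.08 and Rorb at 8.83 ± 2.14 TPM (SD, n = 3). The highest was thus 44.2 times the lowest. Of the tested genes, 27.9% had a lower mean control TPM than Rorb and 97.5% a lower one than Pou3f3. The control ranges overlapped between the neighbours Mef2c and Lhx2, and between Cux1 and Pou3f2, while the other neighbouring pairs in this order did not overlap.

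In cKO cortex the TPM order was the same but for Cux1 and Pou3f2, which changed places. Cux1 stood at 140, 144 and 128 TPM and Pou3f2 at 181, 209 and 195 TPM in the cKO libraries. In control, Cux1 had 165, 144 and 160 TPM and Pou3f2 148, 121 and 186 TPM. Pou3f2 was thus above Cux1 in all 3 cKO libraries and in 1 of the 3 controls. This pair was picked after its values were seen and was not tested.

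**Figure D4:**
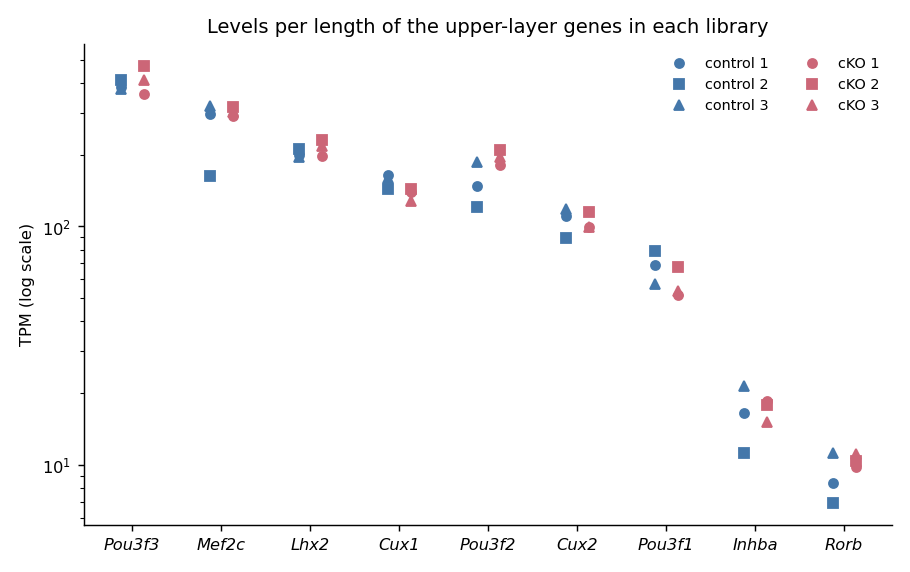
TPM (log scale) of the 9 upper-layer genes in the 3 control (blue) and 3 cKO (red) libraries, in the order of the control means, with marker shape giving the replicate number. Pou3f3 is highest and Inhba and Rorb are lowest in both groups, and Pou3f2 is above Cux1 in all cKO libraries.

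The wider upper-layer list held 20 further genes that mark or act in these neurons, 17 of which passed the filter on low counts. Lamp5, Cartpt and Rspo1 did not pass. At an unadjusted p-value under 0.05, 3 were higher in cKO and 3 lower, beside 3.14% and 3.49% of all tested genes, and 0 passed the adjusted threshold. The median log2 fold change was 0.02 over the 17 genes. With control replicate 1 left out 3 genes of the list had an unadjusted p-value under 0.05, beside 5.48% of all genes tested in that fit. With cKO replicate 1 left out it was also 3, beside 3.9%. The groups were apart in CPM for 6 of the 17, where 14.3% of all tested genes were. The list was chosen with earlier results of these data known. These counts therefore describe the list and do not test it against all genes.

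The 3 lower genes of the wider list were Mdga1, Rasgrf2 and Bhlhe22. Mdga1, an adhesion protein of layer 2 and 3 neurons that limits synapse formation, stood at 212, 152 and 189 CPM in control and 131, 136 and 117 CPM in cKO, with every cKO library below every control. Its log2 fold change was -0.53 (SE 0.14, interval -0.84 to -0.21, adjusted p = 0.465). Mdga1 passed the adjusted threshold without control replicate 2 (-0.65, adjusted p = 0.00973) and with the length and GC correction (-0.59, adjusted p = 0.0165). In those fits 122 and 152 of all tested genes passed. Mdga1 did not pass in DESeq2 (adjusted p = 0.0755), in edgeR's exact test (adjusted p = 0.0945) or with limma on log2(TPM + 1) (adjusted p = 0.491). Rasgrf2, a guanine nucleotide exchange factor, had a log2 fold change of -0.71 (SE 0.218, adjusted p = 0.52), and control replicate 1 was its highest library at 15.5 CPM (-0.43 without that library). Bhlhe22, a basic helix-loop-helix factor of area identity, went from 286 to 223 CPM in the mean, a log2 fold change of -0.36 (SE 0.117, adjusted p = 0.569). The groups did not overlap for either gene.

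The 3 higher genes were Nectin3, Lmo3 and Whrn. Nectin3, a cell adhesion protein, stood at 58.2, 42.9 and 54.1 CPM in control and 73.9, 63.8 and 60.2 CPM in cKO, a log2 fold change of 0.35 (SE 0.141, adjusted p = 0.687). Lmo3, a LIM-only transcriptional cofactor, had a log2 fold change of 0.3 (SE 0.107, adjusted p = 0.612). Whrn, a PDZ scaffold protein, had one of 0.33 (SE 0.119, adjusted p = 0.608). Every cKO library was above every control for these 3 genes. All 6 genes kept their sign in the 16 alternative fits, but not their unadjusted call. Nectin3 had 0.2 with the length and GC correction (unadjusted p = 0.102) and 0.23 without control replicate 2. On log2(TPM + 1), where 10.3% of all tested genes had an unadjusted p-value under 0.05, none of the 3 lower genes did, with -0.21 for Bhlhe22, -0.37 for Mdga1 and -0.39 for Rasgrf2.

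Of the 14 deep-layer genes, all tested, 0 had an unadjusted p-value under 0.05, beside 6.62% of all tested genes. An adjusted p-value under 0.05 was also found for 0 of them, beside 0.0737%. Their log2 fold changes ran from -0.34 to 0.18, with a median of -0.03. The groups overlapped for each of the 14, where 14.3% of all tested genes had groups apart. Nfib, a nuclear factor I protein, and Tbr1, the layer 6 determinant, were the most abundant of the list. Their log2 fold changes were 0.15 (adjusted p = 0.9) and -0.12 (adjusted p = 0.9). Upper and deep layers were not compared by a test.

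**Figure D5:**
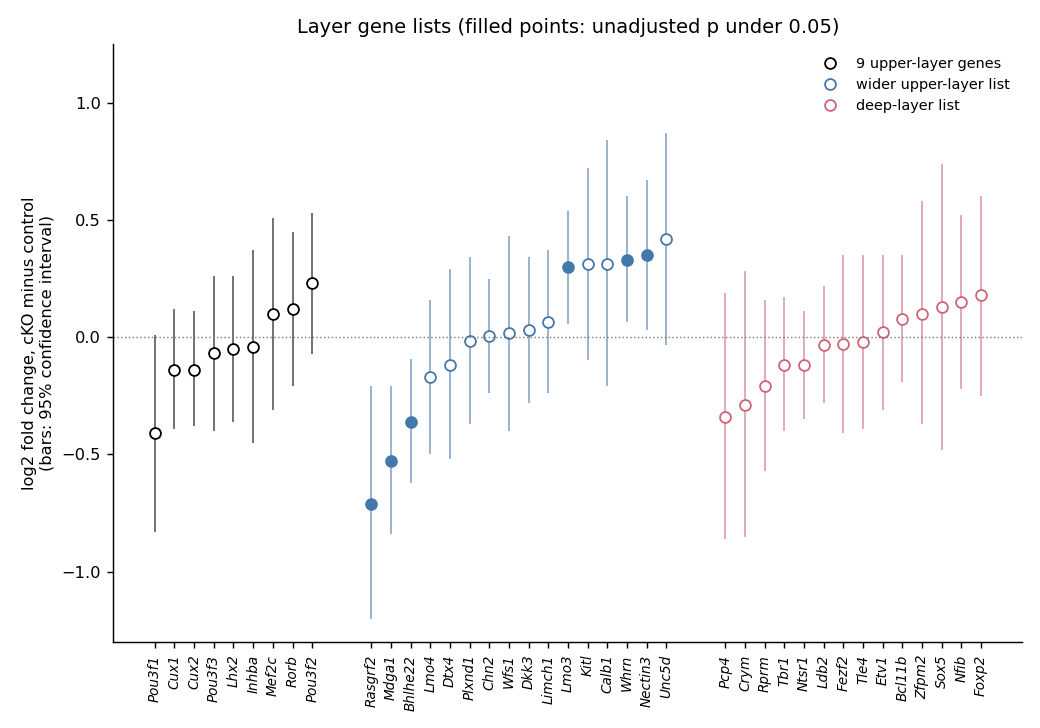
Log2 fold change (cKO minus control, vertical axis) with its 95% confidence interval for the 9 upper-layer genes (black), 16 tested genes of the wider upper-layer list (blue) and the 14 of the deep-layer list (red), ordered within each list. Filled points have an unadjusted p-value under 0.05: 0 of 9, 6 of 16 and 0 of 14, beside 6.62% of all tested genes. The lists were chosen with earlier results of these data known, so these counts are a description and not a test.

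Other cell types of the dissected cortex were followed by their marker lists, whose summed CPM ranges overlapped between the groups for every list. Of the intermediate progenitor list, 9 genes were tested and 0 had an unadjusted p-value under 0.05, beside 6.62% of all tested genes. Its sums were 614 to 645 CPM in control and 594 to 681 CPM in cKO. The 2 most abundant genes of the list, Eomes and Elavl4, had log2 fold changes of 0.05 and 0.04. Elavl4 alone held a mean of 129 CPM in control and 133 CPM in cKO. Of 10 radial glia genes, Pax6, a progenitor factor, was the 1 with an unadjusted p-value under 0.05 (log2 fold change 0.31, unadjusted p = 0.0204, adjusted p = 0.608). Most of that list lay on the other side of 0, with 7 of the 10 below it and a median of -0.09, and its sums were 768 to 1020 and 857 to 951 CPM. Of 10 pan-neuronal genes, with sums of 7430 to 8970 and 7320 to 8250 CPM, Slc17a7 and Syt1 had unadjusted p-values under 0.05, both higher in cKO, while 6 of the 10 lay below 0 and the median was -0.02. Slc17a7, the vesicular glutamate transporter VGLUT1, stood at 33, 30.7 and 34.1 CPM in control and 55.5, 55.1 and 51.6 CPM in cKO, a log2 fold change of 0.73 (SE 0.103, adjusted p = 0.0722). It passed the adjusted threshold without control replicate 2 (0.69, adjusted p = 0.00576) and with the length and GC correction (0.76, adjusted p = 0.0175). In those fits 122 and 152 of all tested genes passed. With all 6 libraries Slc17a7 also passed in DESeq2 (adjusted p = 3.73e-06) and in edgeR's exact test (adjusted p = 1.02e-05), where 99 and 97 of all tested genes passed. It did not pass with limma on log2(TPM + 1) (adjusted p = 0.091). Syt1, a synaptic vesicle calcium sensor, had a log2 fold change of 0.52 (adjusted p = 0.51).

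Among the lists of cells outside the projection neuron lineage, 0 genes had an unadjusted p-value under 0.05 in the interneuron (10 tested), striatal (10), thalamic (4), oligodendrocyte precursor (5), microglia (8) and erythroid (6) lists. Over all tested genes the share under that threshold was 6.62%. The summed levels in control and cKO were 529 to 638 and 473 to 693 CPM for interneurons and 119 to 156 and 122 to 171 CPM for striatum. They were 80.5 to 101 and 87.3 to 95.8 CPM for thalamus, and 61.5 to 77.4 and 53.3 to 82 CPM for oligodendrocyte precursors. They were 70.2 to 92.3 and 83.1 to 88.2 CPM for microglia, and 983 to 1350 and 998 to 1220 CPM for erythroid cells. Slc17a6 made up most of the thalamic sums, at means of 79.6 CPM in control and 78 CPM in cKO. Those sums thus mainly follow 1 gene and do not measure the amount of thalamic tissue. The most abundant genes of these lists had log2 fold changes of -0.3 for Dlx1 and 0.14 for Lhx6, 0.31 for Ppp1r1b and 0.2 for Rgs9, and -0.03 for Slc17a6 and 0.15 for Rora. They were -0.22 for Pdgfra and -0.26 for Olig1, 0.06 for Csf1r, and 0.06 for Hbb-bs and -0.16 for Hba-a1.

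The remaining lists had 1 gene each with an unadjusted p-value under 0.05, beside 6.62% of all tested genes. Grik4 of the 6 hippocampal genes was higher in cKO (log2 fold change 0.45, adjusted p = 0.624, sums of 64.6 to 143 and 127 to 143 CPM). Calb2 of the 6 Cajal-Retzius genes was lower (-0.88, adjusted p = 0.732, sums of 319 to 475 and 342 to 431 CPM), and without control replicate 2 it was -0.4 (unadjusted p = 0.183). Aqp4 of the 7 astrocyte genes (0.74, adjusted p = 0.718, sums of 300 to 358 and 333 to 390 CPM) was higher, at 6.38, 3.21 and 3.58 CPM in cKO, and without cKO replicate 1 it was 0.37 (unadjusted p = 0.199). Of the astrocyte genes 3 lay below 0. Pdgfrb of the 8 endothelial and pericyte genes (0.27, adjusted p = 0.731, sums of 343 to 411 and 386 to 480 CPM) was higher. The part of these cells in the levels of the upper-layer genes was not tested. No gene of any list was at 0 in all 6 libraries.

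The 9 upper-layer genes did not share 1 profile over the 6 libraries, since they deviated in both directions in control replicate 2, as given above, and these deviations cancel in part in their average. Centred on its own mean, the average of their log2 CPM was 0.02, -0.05 and 0.08 in control and -0.1, 0.1 and -0.06 in cKO. The tested genes outside the group closest to this average were Wiz, Plxnb1 and Macrod2. Their root mean square differences from it were 0.012, 0.0282 and 0.0307 on the log2 scale, where the median of all other tested genes was 0.203. This likeness rests on 6 libraries and on small deviations.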

How the data were processed

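The authors deposited 1 table with 27 columns, with 18 of them holding the values of the 6 libraries for 17348 genes. The estimated counts in the authors' table carry no normalization. TPM as deposited has 1 fixed sum per library. FPKM as deposited corrects for the length of the transcript and the depth of the library. Averages per group (6 columns) were not used. The submitters' processing notes name HISAT2 2.2.1, Bowtie2 2.4.5 and RSEM 1.3.1 and the builds GRCm38 and mm10, while strandedness and annotation are not given in the sources used here.

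Groups and replicate numbers came from the sample titles. Estimated counts were rounded, filtered with filterByExpr, scaled by TMM and compared with edgeR 4.0.16 (quasi-likelihood test, no block, Benjamini-Hochberg adjustment over 13570 genes) in R 4.3.3. Adjusted p-values in the text are from this test unless another is named, and the SE is the fold change divided by the root of its F statistic. Log2 CPM values used a prior count of 2. Permutation tests were exact. Alternatives used limma 3.58.1 on log2(TPM + 1), DESeq2 1.42.0 and smooth trends from mgcv 1.9.3. The methods were tested on simulated counts. Transcript length, GC content, coordinates and sequences came from GENCODE M21 (GRCm38), which gave length and GC content for 97.7% of the genes. Figures were drawn with matplotlib 3.10.9.

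The 9 genes and the marker lists were chosen with earlier results of these data known. The genes named were these 9 and Ybx1, the genes of each other list with an unadjusted p-value under 0.05 or otherwise its 2 most abundant, and the 3 genes of nearest profile. Lamp5, Cartpt and Rspo1 were added after their values were seen. Protein sequences were not used here. Items withheld for evaluation stayed in the counts of their lists but are not reported here.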

Additional observations from a re-analysis of the deposited data

How the results depend on the processing

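Of 144 fold changes of single upper-layer genes over 16 alternative fits, 130 kept their sign and their side of the adjusted threshold and 14 turned in sign, and none of the 144 passed it. The cause of these turns was not tested. With the length and GC correction, Rorb was -0.0491 and Lhx2 0.0118, and with the replicate block added they were -0.0421 and 0.00717. On log2(TPM + 1), which moved the median of all tested genes to 0.14, Pou3f3 was 0.0781, Lhx2 0.0829, Inhba 0.098 and the median of the 9 genes 0.0829. That median was -0.15 with the length and GC correction, with or without the replicate block. With 1 library left out, log2 fold changes ran from -0.17 to 0.0476 for Pou3f3, from 0.0182 to 0.28 for Rorb, from -0.0993 to 0.23 for Mef2c, from -0.13 to 0.0658 for Lhx2 and from -0.21 to 0.15 for Inhba.

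The number of the 9 genes with an unadjusted p-value under 0.05 was 1 with the replicate block, edgeR's exact test, DESeq2, no filter and limma, 3 with the length and GC correction (also with the replicate block), and 0 to 2 with 1 library left out. The share of all tested genes below that threshold moved as well, from 6.62% to 7.62% with the replicate block, 10.3% with limma and 12.4% with the correction. It was 14% with the correction and block, and 3.57% to 14% with 1 library left out. Shares of 6.57%, 6.31% and 5.87% were found in edgeR's exact test, in DESeq2 and with no filter. Where 1 gene was counted in a fit of all 6 libraries, it was Pou3f2 with limma and Pou3f1 in the others. At an unadjusted p-value under 0.1 the number of the 9 genes was 1, and the share of all tested genes was not computed. Cux1 was the 1 gene of the 9 whose groups were apart in FPKM, and the share of all tested genes apart in FPKM was not computed. The FPKM sum over genes was highest in control replicate 2, at 522819, against at most 436541 in a cKO library. In that control Cux1 was the highest of the controls in FPKM (75.2) and the lowest in CPM (285). Over all genes, 97 passed the adjusted threshold in edgeR's exact test, 99 in DESeq2, 152 with the length and GC correction, 161 with the replicate block as well, and 18 at an adjusted p-value under 0.1. With 1 library left out this number ran from 8 to 122, the highest without control replicate 2, and 3 to 8 genes of the wider list passed the unadjusted threshold. The paired analysis with the replicate block rested on a shared number only. Deviations of same-numbered libraries correlated at 0.0884, 0.0615 and 0.23, and the block gave 11 calls over all genes against 10 without it. Under the block Pou3f1 was -0.4 (interval -0.68 to -0.11, unadjusted p = 0.0122, adjusted p = 0.469), and its log2 ratio was -0.53, -0.51 and -0.14 in libraries numbered 1, 2 and 3.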
